A study of Homo sapiens with 16 samples.

Results

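The nuclear-encoded subunits of the mitochondrial respiratory chain and of ATP synthase were described across 8 groups of libraries from U2OS, a human osteosarcoma cell line. Members were chosen by a rule on gene symbols, as NDUF genes of complex I, SDH genes of complex II, UQCR genes of complex III, COX4 to COX8 genes of complex IV and ATP5 genes of complex V. The rule uses no measured value, but it was set with earlier results of these data known. The files list 83 such genes among 28207 human genes: 38 in complex I, 4 in complex II, 8 in complex III, 16 in complex IV and 17 in complex V. NDUFA4 was kept with complex I by its symbol, although it is now known as a subunit of complex IV.

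Total RNA was sequenced in 16 libraries, 2 for each of the CL and CC arms of zdna1, zdna2, zdna3 and zdna4. The labels give the number and the arm together as the genotype and spell out neither. They name no treatment, no clone and no control, so CL is set over CC between the arms, and between numbers the first-named is set over the other. The title of the series names MYC, a transcription factor, the histone chaperone FACT and Z-DNA, in which the helix turns to the left.

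The respiratory chain passes electrons taken from NADH by complex I and from succinate by complex II through complex III to oxygen at complex IV. Complexes I, III and IV pump protons out of the matrix as they do so, and complex V, the ATP synthase, makes ATP from their return. All but complex II combine nuclear-encoded subunits with subunits made inside the mitochondrion, and the mitochondrially encoded ones were not analysed here. Promoters of the nuclear-encoded subunits are known to hold sites for NRF1, for ETS factors such as GABP, for YY1 and for Sp1, and MYC binds the E-box.

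Promoter windows of 300 bases, from 250 before to 50 after the start of the gene, were taken from RefSeq on GRCh38.p14, and 69 of the 83 members matched, 67 by symbol and 2 by an older symbol. Of these, 5 are shown 5′ to 3′ on the strand of the gene. UQCRC1, at chr3:48609597-48609896 on the minus strand, is the 1 subunit whose level passed a test between groups. SDHB, at chr1:17053983-17054282 on the minus strand, had the same sign between the arms in all 4 numbers. ATP5ME, at chr4:674227-674526 on the minus strand, holds 4 of the motifs searched. COX6A1, at chr12:120437863-120438162 on the plus strand, and COX6A2, at chr16:31428311-31428610 on the minus strand, belong to a read and an unread isoform of the same complex IV subunit. Capitals mark matches on either strand to CGCATGC (NRF1), CCGGAAG (ETS), CACGTG (E-box) and AAGATGG (YY1).
UQCRC1: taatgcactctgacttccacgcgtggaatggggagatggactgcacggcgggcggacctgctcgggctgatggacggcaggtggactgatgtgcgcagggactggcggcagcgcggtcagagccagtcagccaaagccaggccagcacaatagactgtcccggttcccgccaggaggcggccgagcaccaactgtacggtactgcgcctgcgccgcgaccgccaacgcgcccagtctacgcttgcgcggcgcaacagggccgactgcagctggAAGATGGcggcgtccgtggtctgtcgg
SDHB: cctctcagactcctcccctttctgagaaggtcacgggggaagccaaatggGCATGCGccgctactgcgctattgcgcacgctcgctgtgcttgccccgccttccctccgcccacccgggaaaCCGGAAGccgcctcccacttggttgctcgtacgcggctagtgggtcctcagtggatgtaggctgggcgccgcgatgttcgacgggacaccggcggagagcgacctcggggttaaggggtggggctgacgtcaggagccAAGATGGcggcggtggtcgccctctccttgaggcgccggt
ATP5ME: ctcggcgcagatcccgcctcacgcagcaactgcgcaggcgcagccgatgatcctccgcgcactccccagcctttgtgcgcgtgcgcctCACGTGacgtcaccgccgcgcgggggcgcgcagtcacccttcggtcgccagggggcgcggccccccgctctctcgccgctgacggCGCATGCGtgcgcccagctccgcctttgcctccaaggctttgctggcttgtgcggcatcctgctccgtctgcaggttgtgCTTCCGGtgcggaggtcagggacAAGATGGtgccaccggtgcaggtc
COX6A1: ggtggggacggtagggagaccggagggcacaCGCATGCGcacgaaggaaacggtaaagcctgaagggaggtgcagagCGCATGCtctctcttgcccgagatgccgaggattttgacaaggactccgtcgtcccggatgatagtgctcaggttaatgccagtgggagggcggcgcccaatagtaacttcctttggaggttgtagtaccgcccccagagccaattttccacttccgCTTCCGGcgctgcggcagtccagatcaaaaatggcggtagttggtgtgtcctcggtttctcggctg
COX6A2: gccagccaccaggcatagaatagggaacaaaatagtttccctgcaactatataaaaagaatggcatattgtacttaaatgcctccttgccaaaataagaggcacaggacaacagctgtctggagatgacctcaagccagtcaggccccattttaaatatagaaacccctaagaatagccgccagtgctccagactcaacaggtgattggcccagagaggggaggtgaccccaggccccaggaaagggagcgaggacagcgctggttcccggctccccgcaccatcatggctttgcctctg

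The NRF1 letters were found in 13 of the 69 subunit windows (18.8%), against 5.14% of the windows of 15842 protein-coding genes. The ETS letters were found in 20 (29.0%), against 14.2% of all windows, and NRF1 and ETS letters stood together in 6 (8.70%), against 1.10%. The YY1 letters were found in 16 (23.2%), against 6.40%. They hold ATG, the letters of a start codon. The marked matches in UQCRC1, SDHB and ATP5ME begin 23, 10 and 26 bases past the start of the gene. How many YY1 matches lie at a start codon was not counted, so these shares are not shares of YY1 sites. For the E-box the shares were 10.1% of subunit windows and 8.88% of all windows, and for GGGCGG (Sp1), which is not marked above, they were 58.0% and 58.5%. The only overlap between matches of different motifs in subunit windows was of ETS with Sp1, in 1 window. Both matched windows of complex II with an NRF1 match also held an ETS match, and no window of complex III held an NRF1 match. A run of at least 12 alternating purines and pyrimidines, the kind of sequence known to favour Z-DNA, was found in 16 subunit windows (23.2%), against 9.15% of all windows. The longest, of 17 bases, was in COX6A1 and spans an NRF1 match. The NRF1 and E-box letters alternate in this way themselves, so the share of runs is not separate from the shares of those motifs. How many runs overlap such matches was not counted. These matches describe letters in the windows and were not tested.

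**Figure D1:**
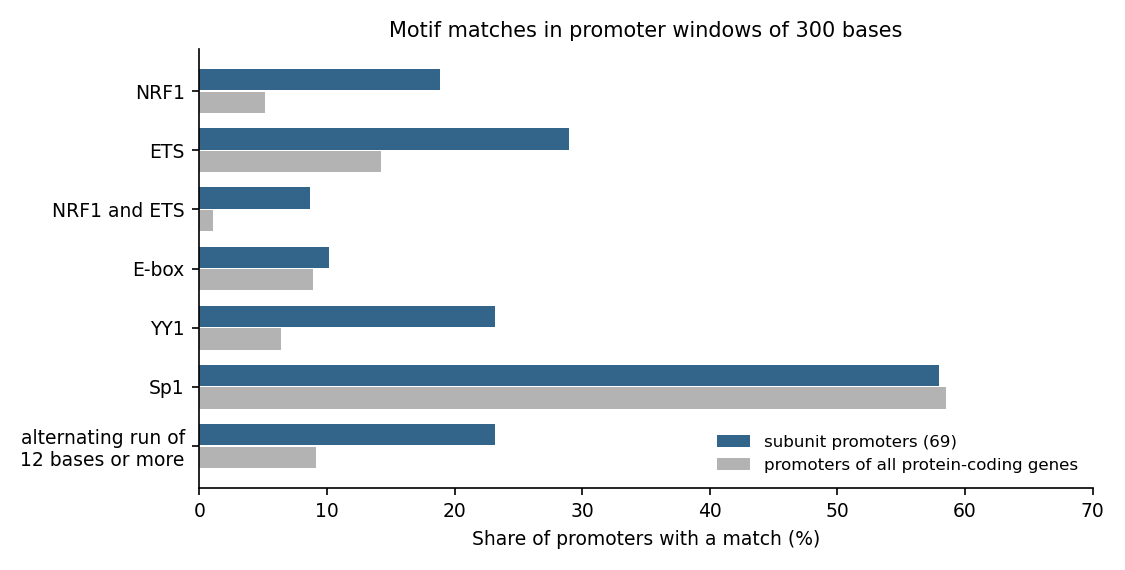
Share of promoter windows of 300 bases with a match to each motif on either strand, in percent, for 69 subunits (dark bars) and 15842 protein-coding genes (light bars). The NRF1, ETS and YY1 shares were 18.8%, 29.0% and 23.2% among subunits, and the Sp1 bars had nearly the same length, at 58.0% and 58.5%.

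The libraries held 39335 to 310187 reads over human genes, so that a single read was worth 25.4 CPM in the smallest library and 3.22 CPM in the largest, CPM being reads scaled by the human-gene total of their library. Reads on a further contig, which were left out of all totals, made up 0.326% to 87.7% of assigned reads. The zdna4 CC libraries stood apart: olfactory receptor genes, which such cells are not known to use, summed to 1449 and 1492 CPM there, against 55.3 to 396 CPM in the other 14 libraries. The 10 osteosarcoma and mesenchyme markers summed to 4754 to 7458 CPM, although COL1A2, a collagen chain, had no read in zdna1 CL, zdna1 CC or zdna3 CL, and ALPL, the alkaline phosphatase of bone, had none in zdna4 CC, whereas 10 markers of blood, epithelium, liver, neuron and muscle summed to 0 to 102 CPM, with CD3E and HBB at 0 in every library. Replicates are not stated to be separate cultures, so each p-value measures only the spread between these libraries, which may be technical.

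The 83 members together drew 10512 of 2009133 human reads. At least 1 read was found for 79 of them, and 61 to 77 were seen in any 1 library. Tests were limited to genes averaging 50 CPM or more, a level that 45 members reached: 16 in complex I, 3 in complex II, 7 in complex III, 8 in complex IV and 11 in complex V. These 45 held 83.3% of the members' reads. The member just above that limit was NDUFB11, an accessory subunit of complex I, at 50.2 CPM, and the member just below it was COX8A, a small subunit of complex IV, at 48.2 CPM.

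Levels between subunits were compared per length, in TPM, with means ± SD over the 16 libraries. In complex V the highest were ATP5MF, a small membrane subunit, at 357 ± 83.8 TPM, and ATP5F1B, the catalytic beta subunit of the F1 part, at 327 ± 59.0 TPM, followed by ATP5ME, another small membrane subunit, at 196 ± 90.4 TPM. ATP5F1A, the partner of ATP5F1B in the F1 part, stood at 56.6 ± 15.7 TPM with 467 reads, against 725 reads for ATP5F1B. The lengths used were 6324 bases for ATP5F1A and 1759 bases for ATP5F1B, and a long union of annotated exons lowers a level per length. The lowest member of complex V was ATP5F1E, the epsilon subunit, with 11 reads in all. ATP5F1E shares 40.7% of its exon bases with other listed genes and ATP5MF shares 30.6%, and fragments over 2 genes are not assigned to either, so both levels may be too low.

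In complex IV the 10 subunits or isoforms used by most tissues had 69.8 to 270 TPM, led by COX6B1 at 270 ± 128 TPM, COX7C at 231 ± 115 TPM and COX4I1 at 202 ± 56.7 TPM. COX6B1 and COX7C are small nuclear-encoded subunits and COX4I1 is the widespread form of the regulatory subunit IV. In complex I the highest were the accessory subunits NDUFB9 at 258 ± 85.7 TPM, NDUFS5 at 257 ± 115 TPM and NDUFA13 at 173 ± 92.5 TPM. The 7 core subunits of complex I, which hold the flavin and the iron-sulfur clusters, had a median of 58.2 TPM, and the 31 accessory ones had a median of 56.3 TPM.

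In complex III the hinge protein UQCRH led at 162 ± 79.7 TPM, before the core protein UQCRC1 at 120 ± 34.3 TPM and the small subunit UQCR10 at 95.3 ± 28.7 TPM. In complex II the catalytic subunits SDHB, which carries the iron-sulfur clusters, and SDHA, which carries the flavin, had 149 ± 32.8 and 98.1 ± 27.6 TPM. The membrane anchors SDHD and SDHC had 51.3 ± 21.3 and 9.50 ± 3.83 TPM. The length used for SDHC is 13474 bases, the union of all its annotated exons, which lowers its level per length.

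**Figure D2:**
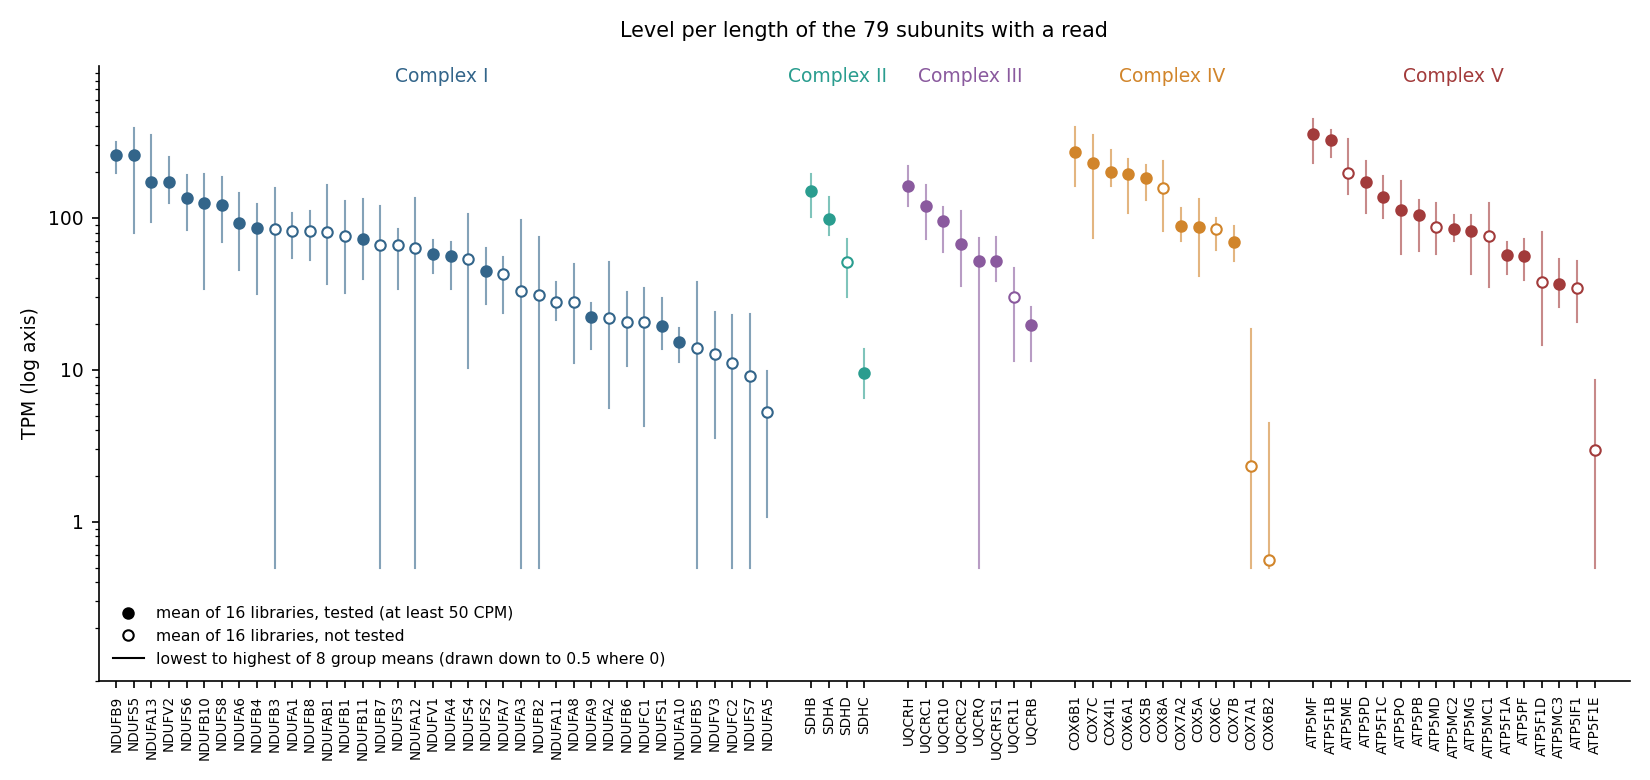
Mean TPM over 16 libraries (points, log axis) of the 79 subunits with a read, by complex and ordered by level, with lines from the lowest to the highest of the 8 group means and filled points for the 45 tested. ATP5MF and ATP5F1B stand highest at 357 and 327 TPM, and COX7A1, COX6B2 and ATP5F1E lie far below the other members of their complexes.

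For 6 subunits of complex IV there is an alternative gene known from muscle, lung or testis, and in these cells the widespread form held nearly all assigned reads. COX4I1 had 267 reads and COX4I2 none. COX6A1 had 129 and COX6A2 none, COX7B had 202 and COX7B2 none, and COX8A had 95 and COX8C none. COX8C shares 60.7% of its exon bases with UNC79, so fragments there may have been left unassigned, and its 0 says little about its use. COX6B1 had 166 reads against 2 of COX6B2, both in 1 library, and COX7A2 had 142 against 2 of COX7A1. A count of 0 over all libraries allows up to 1.49 CPM, counting error only. Of the 6 little-read isoforms 4 had a promoter window, and none of the 4 held NRF1, ETS, E-box or YY1 letters, as in the window of COX6A2 shown above. Of all windows, 18.3% held NRF1 or ETS letters, 8.88% the E-box and 6.40% the YY1 letters, so windows without any of them are common. A link between these letters and the reads of the isoforms was not tested.

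Summed over all members, the share of human reads was 0.493% to 0.560% in 14 libraries and 0.437% and 0.448% in the zdna4 CC libraries. As the ratio of summed reads, CL over CC was 0.964 (95% interval 0.899 to 1.03) in zdna1, 1.05 (0.979 to 1.14) in zdna2, 0.983 (0.879 to 1.10) in zdna3 and 1.16 (1.04 to 1.30) in zdna4. These intervals cover counting error only, and fewer cells and less of these RNAs per cell cannot be told apart in bulk RNA. In zdna4 CC the 2 libraries had the highest olfactory sums given above, and genes too weak to be tested took 24.5% and 25.7% of their human reads, against 15.7% to 17.3% in the other libraries. On the scale of the tests, which adjusts for the composition of each library with TMM factors, all members summed to 5089 and 5144 CPM in zdna4 CL and 4641 and 4833 CPM in zdna4 CC. The CL libraries were the higher on both scales. The 10 osteosarcoma and mesenchyme markers summed to 6044 and 6296 CPM in zdna4 CL and to 4754 and 5038 CPM in zdna4 CC, and the 10 markers of other cells summed to 8.88 and 19.3 CPM in CL and to 48.9 and 102 CPM in CC. At the read density of the olfactory genes, reads over the lengths of the members would equal 12.46% and 12.53% of the member reads in zdna4 CC. In the other 14 libraries they would equal 0.391% to 2.82%. The part of the weak genes, the olfactory genes and these markers in the difference between zdna4 CL and CC was not tested.

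By complex, the zdna4 CL libraries lay above the zdna4 CC libraries in complex IV, with 672 and 688 CPM in CL and 648 and 555 CPM in CC. They also lay above them in complex V, with 1652 and 1679 CPM in CL and 1457 and 1399.8 CPM in CC. Complex II went the other way in zdna4, with 346 and 295 CPM in CL and 378 and 423 CPM in CC. Over the 5 complexes and 4 numbers, the CL libraries lay above the CC libraries in 4 of 20 cases, below them in 2, and overlapped them in 14. With 2 libraries against 2 and no difference, a share of 0.333 would be apart in either direction. Scaled by library totals instead, the counts above, below and overlapping were 5, 2 and 13, with complexes I and III in zdna4 then above as well and complex IV in zdna3 overlapping.

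**Figure D3:**
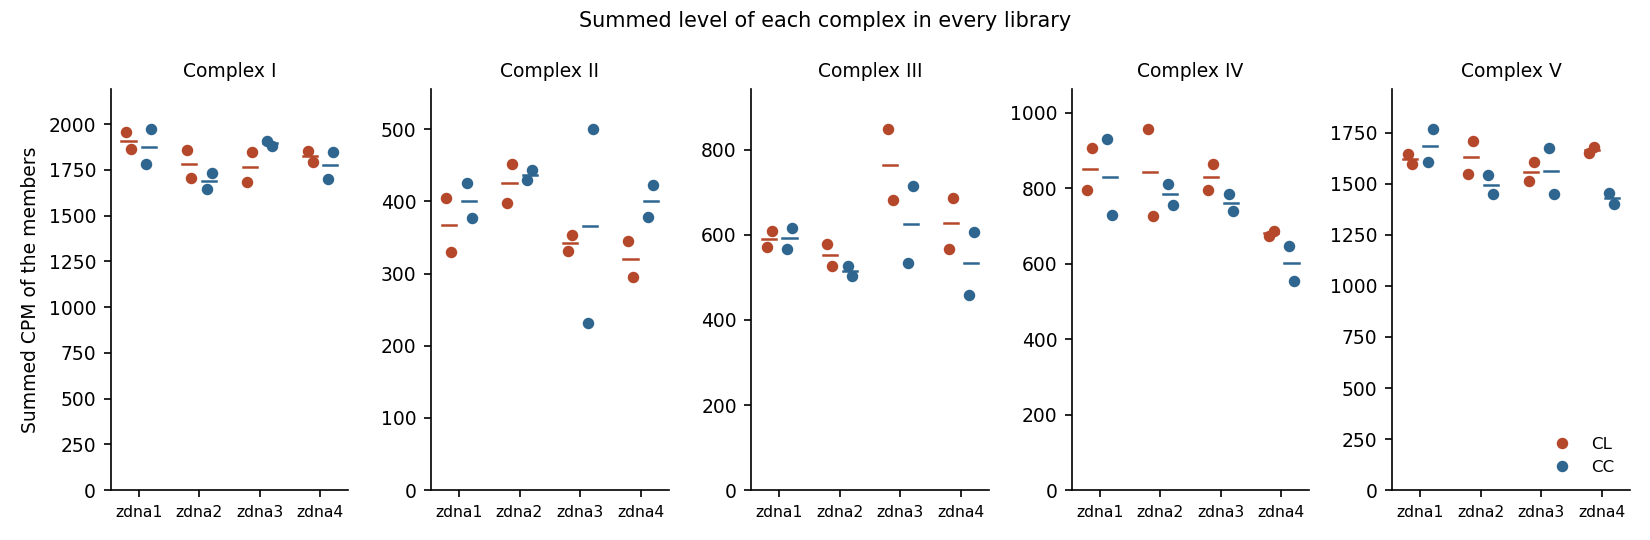
Summed CPM of the members of each complex (vertical axis, from 0) in each of the 16 libraries (points) and the mean of each pair (lines), by number, with CL left of CC. In zdna4 the CL points lie above the CC points in complexes IV and V and below them in complex II.

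Between the arms, no subunit of any complex passed the test in any number. In limma with Benjamini-Hochberg adjustment over all 4632 genes tested, 0 of the 45 members passed 0.05 in zdna1, where 0.756% of all genes did, in zdna2 (0.173%), in zdna3 (0.0864%), in zdna4 (1.17%) and in the average over the 4 numbers (0.432%). The test that the 4 differences are equal called 0 members as well (0.864% of all genes). edgeR's quasi-likelihood test on the recovered reads likewise called 0 members in each of these 6 comparisons, where it called 0.993%, 0.194%, 0.0864%, 1.17%, 0.475% and 1.23% of all genes in the same order. At an unadjusted p under 0.05 limma found 5 members in zdna1 (10.6% of all genes), 2 in zdna2 (6.58%), 0 in zdna3 (6.56%), 5 in zdna4 (10.4%), 5 in the average (9.28%) and 3 in the test of equality (10.4%). With 2 libraries against 2, an exact permutation test of a single gene cannot go below p = 0.333.

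The median log2 change of the 45 members, CL over CC, was -0.11 in zdna1, 0.18 in zdna2, 0.20 in zdna3, 0.21 in zdna4 and 0.14 in the average. The medians of all genes tested were -0.00, -0.01, 0.06, 0.08 and 0.05 in the same order. In the average, 29 of 45 members lay above 0, and 57.2% of all genes did. By complex the medians of the average were 0.15 for complex I, -0.07 for complex II, 0.26 for complex III, 0.23 for complex IV and 0.04 for complex V. Complex II had a median below 0 in zdna1 at -0.27, in zdna2 at -0.07 and in zdna4 at -0.39, but of 0.20 in zdna3. A sign shared by all 4 numbers was found for 10 members, 7 of them higher in CL and 3 lower, which is 22.2% of the 45 against 12.4% of all genes.

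**Figure D4:**
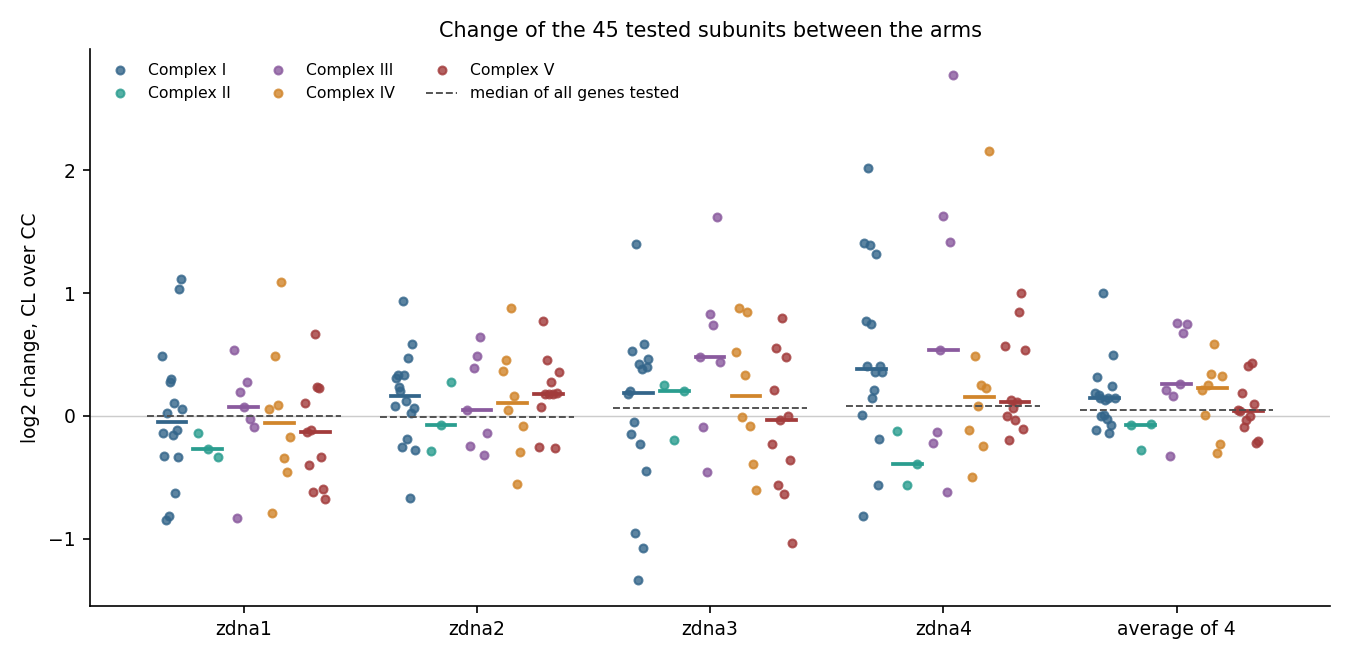
Log2 change, CL over CC, of the 45 tested subunits (points) in each number and in the average of the 4, coloured by complex, with the median of each complex (short lines) and of all 4632 genes (dashed lines). Points spread most widely in zdna3 and zdna4, where no change passed the test, and least in the average, where changes ran from -0.32 to 1.00.

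The precision differed between numbers. In the average, the 95% interval of the log2 change lay within 1 of 0, that is within a 2-fold change either way, for 39 of 45 members (86.7%, against 87.2% of all genes). That held for 16 members in zdna1 (35.6%, against 48.1% of all genes), for 17 in zdna2 (37.8%, against 51.9%), and for 1 each in zdna3 (2.22%, against 15.3%) and zdna4 (2.22%, against 13.0%). The median half-width of the members' intervals was 0.80 in zdna1, 0.81 in zdna2, 1.30 in both zdna3 and zdna4, and 0.54 in the average, on the log2 scale.

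The subunits with the smallest p in each number are given with their values. In zdna1, COX6B1 of complex IV had 105 and 120.4 CPM in CL, against 35.5 and 62.7 CPM in CC. Its log2 change was 1.09 (SE 0.41, limma adjusted p = 0.264). The arms did not overlap, as was the case for 21.5% of all genes in that direction. NDUFV1, the flavin-carrying core subunit of complex I, had 76.8 and 76.0 CPM in CL, against 8.87 and 74.1 CPM in CC, so its log2 change of 1.12 (adjusted p = 0.376) came from 1 low CC library. In the other direction, UQCRB of complex III had 48.9 and 88.7 CPM in CL, against 115 and 137 CPM in CC (log2 change -0.83, adjusted p = 0.330), and NDUFA6 of complex I had 34.9 and 31.7 CPM in CL, against 53.2 and 85.5 CPM in CC (-0.84, adjusted p = 0.509). Both pairs of arms were apart, as for 20.3% of all genes in that direction.

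In zdna2, COX6A1 had 69.8 and 63.0 CPM in CL, against 32.5 and 30.6 CPM in CC, a log2 change of 0.88 (SE 0.43, limma adjusted p = 0.742). ATP5F1C, the gamma subunit that turns inside the F1 part, had 126 CPM in both CL libraries, against 89.2 and 53.5 CPM in CC (0.77, adjusted p = 0.697). The arms were apart for both, as for 16.7% of all genes in that direction. NDUFS5, an accessory subunit of complex I, had 76.8 and 68.7 CPM in CL, against 114 and 129.9 CPM in CC (-0.67, adjusted p = 0.870). COX7A2 had 62.8 and 45.8 CPM in CL, against 64.9 and 107 CPM in CC (-0.55, adjusted p = 0.916). These arms were apart as well, as for 18.2% of all genes that were lower.

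In zdna3, UQCRH had 92.8 and 97.3 CPM in CL, against 107 and 0 CPM in CC. Its log2 change of 1.62 (SE 0.82, limma adjusted p = 0.739) rests on the CC library without a read, and without that library it was -0.19. NDUFB11 had 79.6 and 109 CPM in CL, against 35.7 and 23.8 CPM in CC (1.40, adjusted p = 0.835). NDUFB4, an accessory subunit of complex I, had 26.5 and 36.5 CPM in CL, against 178 and 47.6 CPM in CC (-1.34, adjusted p = 0.739), and NDUFS5 had 39.8 and 97.3 CPM in CL, against 125 and 167 CPM in CC (-1.08, adjusted p = 0.807). The arms were apart for NDUFB11, as for 19.5% of all genes that were higher, and for NDUFB4 and NDUFS5, as for 14.4% that were lower.

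In zdna4, UQCRQ, a small subunit of complex III, had 51.2 and 67.0 CPM in CL and no read in either CC library. By library totals its CL reads came to 57.9 CPM, 1.55-fold a floor of 3 reads over both CC libraries, which is 37.4 CPM. That ratio leaves out counting error in CL and the spread between libraries. The limma adjusted p of UQCRQ was 0.0867. COX7C had 106 and 98.2 CPM in CL, against 0 and 52.8 CPM in CC, a log2 change of 2.16 (SE 0.66, adjusted p = 0.0859). The arms were apart for both, as for 24% of all genes in that direction. The CC libraries held 39335 and 40886 human reads, so that 1 read was worth 25.4 and 24.5 CPM there. Leaving out a CC library moved these results: 7 members were called without CC replicate 2, which held the only COX7C reads of that arm, and 9 without CC replicate 1, while 17.9% and 17.6% of all genes were called in the same fits. In those fits the library left alone is assumed to vary like the other groups. In the other direction, NDUFA13, an accessory subunit of complex I, had 51.2 and 58.0 CPM in CL, against 135 and 79.2 CPM in CC (-0.82, adjusted p = 0.811). UQCRFS1, the Rieske iron-sulfur protein of complex III, had 80.0 and 62.5 CPM in CL, against 81.0 and 158 CPM in CC (-0.62, adjusted p = 0.829).

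Averaged over the numbers, NDUFB11 had the smallest p, with a log2 change of 1.00 (SE 0.35, limma adjusted p = 0.279). It had 34.9 to 109 CPM in the CL libraries, against 0 to 62.1 CPM in the CC libraries, and its mean was higher in CL in all 4 numbers, with the arms apart in zdna1 and zdna3 and overlapping in zdna2 and zdna4. UQCRC2, the partner of UQCRC1 among the core proteins of complex III, followed at 0.75 (SE 0.31, adjusted p = 0.401). In the other direction stood UQCRB at -0.32 (SE 0.23, adjusted p = 0.708) and SDHB at -0.27 (SE 0.23, adjusted p = 0.772), which was 0.022 on the deposited scale. Without the zdna4 CC libraries, 0 members and 0.108% of all genes were called in the average.

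All 4 subunits of complex II were followed, since the complex is the one made by nuclear genes alone. SDHB had 62.8 and 76.0 CPM in CL, against 79.8 and 91.2 CPM in CC, in zdna1. It had 97.7 and 103 CPM in CL, against 105 and 107 CPM in CC, in zdna2. It had 92.8 and 85.2 CPM in CL, against 89.2 and 119 CPM in CC, in zdna3. In zdna4 the values were 67.2 and 71.4 CPM in CL and 108 and 106 CPM in CC. SDHB was thus lower on average in CL in every number, with the arms apart in zdna1, zdna2 and zdna4, as for 20.3%, 18.2% and 20.3% of all genes that were lower, and overlapping in zdna3, and the 95% interval of its averaged log2 change ran from -0.74 to 0.19. SDHA ran from 121 to 189 CPM in the CL libraries and from 53.5 to 238 CPM in the CC libraries, with an averaged log2 change of -0.07 (SE 0.20, adjusted p = 0.932). SDHC was at -0.06 (SE 0.26, adjusted p = 0.958). SDHD, which missed the limit for testing, had 13.3 to 90.8 CPM in CL and 26.4 to 70.9 CPM in CC.

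Between the numbers, 1 subunit passed the test. In the test of any difference among zdna1 to zdna4, averaged over the arms, UQCRC1 was called (limma adjusted p = 0.0277), 1 of 45 members against 8.85% of all genes. At an unadjusted p under 0.05 this test found 2 members, against 24.3% of all genes, and edgeR's quasi-likelihood test called 1 member and 10.6% of all genes. DESeq2 called 0 of the 28 members to which it gave an adjusted p, and 6.79% of all such genes. Among the 6 pairs of numbers, UQCRC1 was lower in zdna2 than in zdna1, the only call among members in the pair zdna2 over zdna1 (2.5% of all genes, and 2.76% with edgeR, which also called 1 member). At an unadjusted p under 0.05, 3 members were found there, against 15.5% of all genes. No member was called in zdna3 over zdna1 (4.49%), zdna4 over zdna1 (0.691%), zdna3 over zdna2 (6%), zdna4 over zdna2 (2.48%) or zdna4 over zdna3 (4.75%). In these 5 pairs limma found 1, 5, 2, 6 and 1 members at an unadjusted p under 0.05, in the same order, against 18%, 9.89%, 20.4%, 15.6% and 17.9% of all genes, and edgeR's quasi-likelihood test called 1 member, UQCRC1 in zdna3 over zdna2. With edgeR the shares of all genes called were 5.42%, 0.604%, 6.54%, 3.37% and 6.02%.

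UQCRC1 encodes a core protein of complex III and lies at chr3:48636435-48647079 on the minus strand of hg19. In zdna2 it had 83.8 and 85.9 CPM in CL and 56.8 and 68.8 CPM in CC, against 154 and 146 CPM in zdna1 CL and 133 and 125 CPM in zdna1 CC. All 4 zdna2 libraries thus lay below all 4 zdna1 libraries, as was the case for 3.65% of all genes. The zdna2 values rest on 12, 15, 7 and 9 reads and the zdna1 values on 22, 23, 15 and 22 reads. In zdna3 UQCRC1 had 106 and 146 CPM in CL and 160.5 and 191 CPM in CC, and in zdna4 it had 109 and 152 CPM in CL and 135 and 52.8 CPM in CC.

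The log2 change of UQCRC1 in zdna2 over zdna1 was -0.85 (SE 0.23, 95% interval -1.30 to -0.39, limma adjusted p = 0.0280), and edgeR's quasi-likelihood test gave an adjusted p of 0.0414. With any 1 of the 8 libraries left out the change stayed between -0.91 and -0.79, but the adjusted p was 0.0545 to 0.137, and without array weights it was 0.355. In zdna3 over zdna2 the change was 0.93 (SE 0.31), with a limma adjusted p of 0.0560 and an edgeR adjusted p of 0.0454, and all zdna3 libraries lay above all zdna2 libraries, as for 6.54% of all genes. On the deposited scale, where the median of all genes was -1.36, that change was -0.46. That pair uses the same zdna2 libraries. Between the arms UQCRC1 had a log2 change of 0.39 (SE 0.32) in zdna2 and 0.20 (SE 0.32) in zdna1, with an adjusted p of 0.935 and 0.872.

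The other 6 tested members of complex III had log2 changes of -0.21 to 0.35 in zdna2 over zdna1, and none was called. UQCRC2 was at -0.04 (SE 0.32, 95% interval -0.69 to 0.61). COX6A1 of complex IV was the other member with all zdna2 libraries below all zdna1 libraries, at 30.6 to 69.8 CPM in zdna2 and 76.8 to 95.1 CPM in zdna1 (log2 change -0.72, SE 0.30, limma adjusted p = 0.213).

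**Figure D5:**
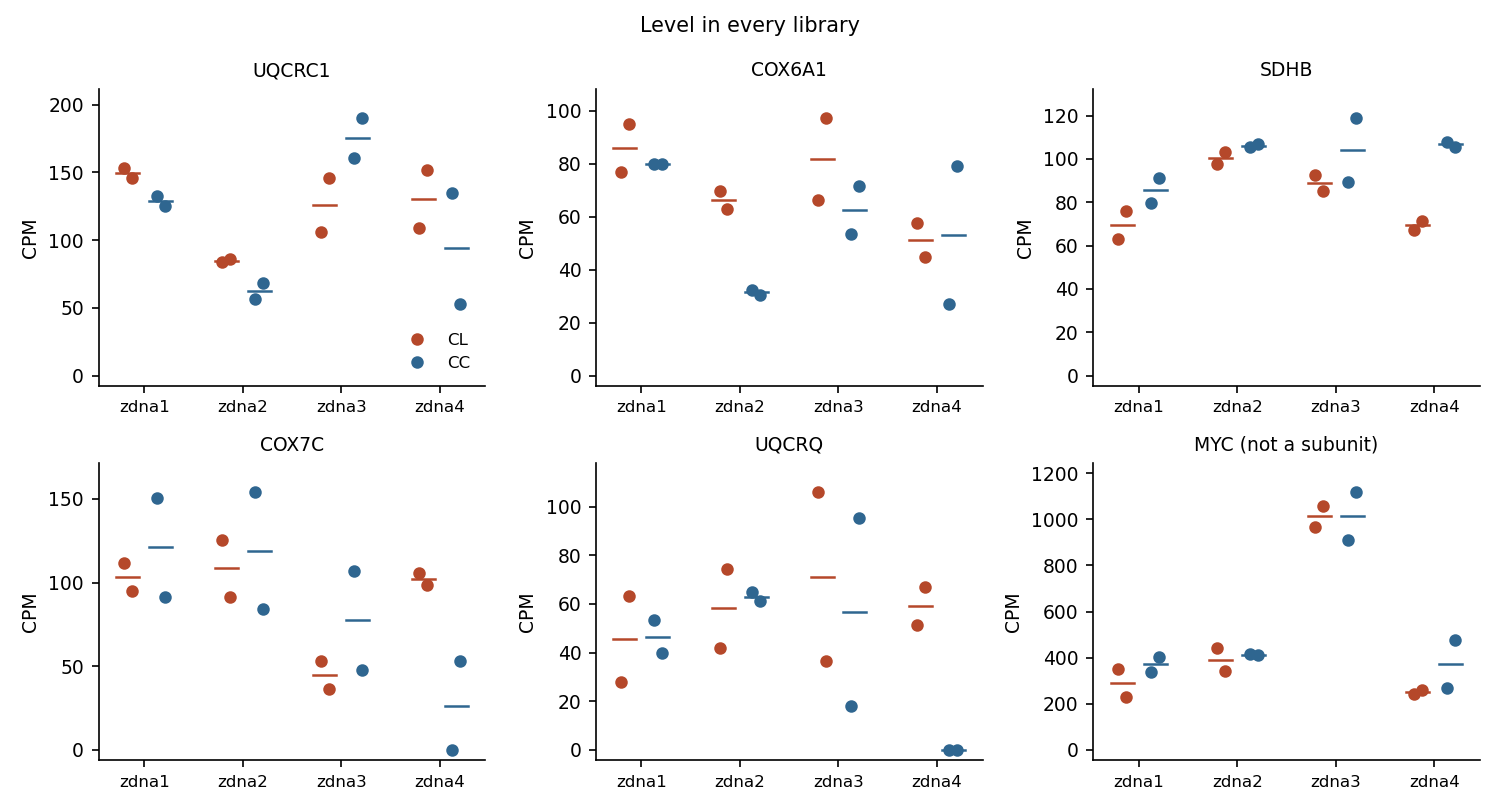
CPM (vertical axis, from 0) of 5 subunits and of MYC in each of the 16 libraries (points) with the mean of each pair (lines), by number, CL left of CC. UQCRC1 lies at 56.8 to 85.9 CPM in zdna2 and at 125 to 154 CPM in zdna1, UQCRQ has no read in zdna4 CC, and MYC lies at 909 to 1119 CPM in zdna3.

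In the other pairs the smallest p among members belonged to COX7C or to UQCRQ wherever it was not UQCRC1. COX7C had 36.5 to 107 CPM in zdna3 and 0 to 106 CPM in zdna4, against 91.2 to 151 CPM in zdna1 and 84.0 to 154 CPM in zdna2. Its log2 change was -0.85 in zdna3 over zdna1 (SE 0.39, limma adjusted p = 0.225) and -1.18 in zdna4 over zdna1 (SE 0.39, adjusted p = 0.178). The libraries of these numbers overlapped. UQCRQ was at -1.27 in zdna4 over zdna3 (SE 0.60, adjusted p = 0.245), with both zdna4 CC libraries at 0. Members higher with the smallest p included NDUFA13, with all zdna4 libraries, at 51.2 to 135 CPM, above all zdna1 libraries, at 31.7 to 39.9 CPM (log2 change 0.92, SE 0.44, adjusted p = 0.501), as for 2.33% of all genes. NDUFA9 of complex I was at -0.80 in the same pair (SE 0.30, adjusted p = 0.319), and SDHA at -0.53 in zdna3 over zdna2 (SE 0.28, adjusted p = 0.278).

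The remaining members with the smallest p in a pair of numbers had limma adjusted p-values of 0.0890 to 0.755, and none was called. In zdna2 over zdna1 the log2 changes were 0.63 for NDUFA6 and 0.54 for NDUFV2, a core subunit of complex I. In zdna3 over zdna1 they were 0.71 for NDUFA13, 0.33 for COX7B and -0.68 for NDUFB4, and in zdna4 over zdna1 0.41 for UQCRB. In zdna3 over zdna2 they were 0.71 for NDUFA13 and -0.86 for COX7C. The values of NDUFA13 and COX7B in zdna3 turned below 0 on the deposited scale, as did the median of all genes. In zdna4 over zdna2 they were 0.92 for NDUFA13, 0.88 for NDUFS8, a core subunit of complex I, -1.19 for COX7C and -1.41 for UQCRQ. In zdna4 over zdna3 they were 0.83 for ATP5MG, a small membrane subunit of complex V, 0.33 for ATP5F1B and -0.87 for NDUFS5, which turned to 0.52 on the deposited scale.

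The smallest SD of the 8 group means belonged to ATP5F1B, which was also the most read subunit, with 725 reads. ATP5F1B had 278 to 402 CPM in the CL libraries and 214 to 433 CPM in the CC libraries. Its group means on the log2 scale had an SD of 0.15, against a median of 0.25 for the 100 genes nearest in level. For their own level COX7A2, at 0.20 against 0.43, and NDUFB9, at 0.17 against 0.37, lay further below that median. The SD between replicates was larger than these, at 0.26 for ATP5F1B, 0.37 for COX7A2 and 0.53 for NDUFB9. Of the 45 members, 32 had a smaller SD of group means than the median of their own neighbours in level. By definition as many neighbours lie below that median as above it. The widest were UQCRQ at 0.96 and COX7C at 0.82, both with a zdna4 CC library at 0 reads. ATP5IF1, the inhibitor of ATP synthase, was below the limit for testing and had 13.3 to 67.2 CPM in CL and 17.8 to 71.4 CPM in CC.

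MYC, 1 of 8 genes tested among 17 regulators of nuclear-encoded mitochondrial genes, was higher in zdna3 relative to human-gene reads. It had 968 and 1058 CPM in zdna3 CL and 909 and 1119 CPM in zdna3 CC, against 228 to 475 CPM in the other 12 libraries. Its log2 change was 1.62 in zdna3 over zdna1 (SE 0.17, limma adjusted p = 1.09e-09) and 1.31 in zdna3 over zdna2 (SE 0.17, adjusted p = 1.35e-07). In these pairs the median of the 45 subunits was -0.09 and -0.08, beside -0.05 and -0.04 for all genes. None of the subunits was called, against 4.49% and 6% of all genes.

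Other genes of the same organelle were followed from lists. Of 18 genes of the TCA cycle and pyruvate dehydrogenase, 13 were tested. Between the arms limma called 0 of them (0.0864% to 1.17% of all genes), with 2 at an unadjusted p under 0.05 in the average (9.28% of all genes). PDHA1, a subunit of pyruvate dehydrogenase, was lower in zdna3 than in zdna1 (log2 change -1.72, SE 0.48, limma adjusted p = 0.0236), 1 of the 13 against 4.49% of all genes. It had 53.0 and 24.3 CPM in zdna3 CL, no read in either zdna3 CC library, and 26.6 to 95.1 CPM in zdna1. Of 29 genes of protein import, 16 were tested, and 1 was called in zdna3 over zdna2, against 6% of all genes. That was HSPA9, the chaperone that pulls proteins into the matrix, which was lower in zdna3 at -0.71 (SE 0.17, limma adjusted p = 0.00404). It had 292 and 401 CPM in zdna3 CL and 303 and 333 CPM in zdna3 CC, against 495 to 614 CPM in zdna2. TFAM, which packages mitochondrial DNA, was lower in zdna3 than in zdna2 at -1.33 (SE 0.40, limma adjusted p = 0.0339), with 0 reads in 1 zdna3 CC library. TFAM and MYC were the 2 of 8 regulators called in that pair, against 6% of all genes.

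Mitochondrial ribosomal proteins had 32 of 78 genes tested and 0 called by limma in any comparison, against 0.0864% to 8.85% of all genes. Between the arms in the average, 1 of them was at an unadjusted p under 0.05, against 9.28% of all genes. Their median log2 change there was 0.12. Assembly factors of the complexes had 6 of 54 tested and 0 called by limma in any comparison, against 0.0864% to 8.85% of all genes. At an unadjusted p under 0.05 there were 0 between the arms in the average, against 9.28% of all genes. Subunits outside the symbol rule, such as CYC1 and CYCS of the path through cytochrome c, had 3 of 5 tested. Of these, limma called 0 in any comparison, against the same 0.0864% to 8.85% of all genes. With only 6 or 3 genes tested, shares this small leave few or no calls, so a count of 0 says little about either list. Of the 3 subunits outside the rule, COX7A2L alone was under 0.05 unadjusted in the average between the arms, against 9.28% of all genes. Its log2 change was 0.91 (SE 0.27, limma adjusted p = 0.140).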

How the data were processed

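Trizol was used to extract RNA and an Abclonal kit to prepare libraries, per the labels' protocols. Trim Galore 0.6.6, STAR and bedtools 2.29.2 and the genomes hg19 and dm6 are named in the submitters' processing notes, with no role given. Paired fragments were assigned to the exons of each gene by featureCounts 2.0.1 without strand, on hg19 plus a further contig, per the file headers, so reads of a gene and of an antisense or overlapping partner cannot be told apart.

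The deposited values are a signal, whole fragments multiplied by 1 constant per library. A header holds the word spikein, but the sources used here do not say how the constant was derived. Whether it reflects a spike-in was not tested. Division by the smallest step gave whole reads within 0.1 read for nearly all values, and all levels and tests use these recovered reads. CPM are relative to human-gene reads, with TMM factors where a gene or complex is shown by library. TPM use the deposited exon lengths, the union of all annotated exons of a gene, which lowers the level per length where that union is long.

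Testing used limma 3.58.1 on log2(CPM + 10), with TMM factors from edgeR 4.0.16, over 4632 genes with an average of 50 CPM or more. Fold changes are on that scale, which understates changes of low genes. A single fit held the 8 group means, with array weights per group and a mean-variance trend. Tests were two-sided, with Benjamini-Hochberg adjustment over all genes in each of 13 comparisons. Pairs with a number in common are not independent. The steps were tested on simulated data. Alternatives were edgeR's quasi-likelihood test, DESeq2 1.42.0, other pseudocounts, filters, scalings and weights, only the libraries compared, a replicate block and each library left out. Reads of the replicates of zdna2 CL and zdna3 CC did not differ beyond sampling noise in a chi-square test over genes (p = 0.0904 and p = 0.796), where chi-square per degree of freedom was 0.976 to 1.11 over all 8 groups, while their values were not identical, and they were kept as 2 libraries each.

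Members and lists were chosen with earlier results of these data known. Named were members called, the 2 tested members with the smallest p in each direction of a comparison, the 3 highest per length in each complex, all of complex II, the isoform pairs, ATP5IF1 and called genes of other lists. ATP5F1A, ATP5F1E and the members at the limit for testing were named after their values were seen.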

Additional observations from a re-analysis of the deposited data

How the results depend on the processing

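The deposited scale, which keeps the unexplained constant of each library, shifted the median of all genes by 0.72 in zdna3 and 0.43 in zdna4 between the arms, by 0.34 in the average, by -1.48 in zdna3 over zdna1, -1.36 in zdna3 over zdna2 and 1.38 in zdna4 over zdna3 (log2). On it 5 members were called between the arms in zdna3 (22.6% of all genes), 2 in zdna4 (4.58%), 7 in the average (22%), 44 among the numbers (94.7%), 44 in zdna3 over zdna1 (95.4%), 40 in zdna3 over zdna2 (92.2%) and 35 in zdna4 over zdna3 (82.7%), and every one of these calls that has a sign had the sign of that shift. Signs turned there for SDHB in the average (0.022), for NDUFA13 in zdna3 over zdna1 (-0.58) and over zdna2 (-0.49), for COX7B in zdna3 over zdna1 (-1.14), for UQCRC1 in zdna3 over zdna2 (-0.46) and for NDUFS5 in zdna4 over zdna3 (0.52).

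Among the numbers, 2 members were called with a filter of 20 CPM (5.88% of all genes) or with library totals (10.3%), and 0 without a filter (0.625%), without array weights (7.86%) or with DESeq2 (6.79%). In zdna2 over zdna1, 0 were called without a filter (0.125%), without array weights (0.367%) or with DESeq2 (3.13%), which gave no adjusted p for UQCRC1. In zdna3 over zdna2, 1 was called with edgeR (6.54%), a pseudocount of 50 (6.8%) or a filter of 20 CPM (3.82%). It was 1 in zdna3 over zdna1 with a filter of 20 CPM (2.68%), 1 in zdna4 over zdna2 with library totals (4.08%) and 1 in zdna4 between the arms without array weights (2.63%). The filter of 20 CPM tested 68 members and no filter 79. The cause was not tested.

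With 1 library left out, the calls of members ran from 0 to 0 in zdna1 between the arms (all genes 0.173% to 0.583%), in zdna2 (0.0216% to 0.194%) and in zdna2 over zdna1 (1.14% to 1.49%). They ran from 0 to 1 in zdna3 (0.151% to 7.12%), 0 to 9 in zdna4 (0.173% to 17.9%), 0 to 2 in the average (0.216% to 3.67%), 0 to 6 in the test of equality (0.453% to 11%) and 0 to 8 among the numbers (6.3% to 23.6%). Between numbers they ran from 0 to 3 in zdna3 over zdna1 (3% to 14.2%), 0 to 6 in zdna4 over zdna1 (0.302% to 11%), 0 to 5 in zdna3 over zdna2 (3.73% to 15.8%), 0 to 12 in zdna4 over zdna2 (0.756% to 17.9%) and 0 to 1 in zdna4 over zdna3 (2.55% to 14.7%). In zdna4 between the arms 9 came without CC replicate 1 (17.6%) and 7 without CC replicate 2 (17.9%). By construction the library left alone is then assumed to vary like the other groups, and its weight was 1.13 in zdna4 CC, against 0.303 with both. UQCRH in zdna3 turned to -0.19 without CC replicate 2 and stood at 3.39 without CC replicate 1. Without both zdna4 CC libraries, chosen after seeing the data, 0 members were called in each of the 5 comparisons run so, with 0.0648% to 0.777% of all genes.

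Same-numbered replicates did not deviate together, with correlations of -0.0703 to 0.0589 over 28 pairs of groups. With the replicate block, 1 member was called among the numbers, 1 in zdna2 over zdna1 and 0 in the other 11 comparisons, the same counts as in the main fit. In the main fit 8.85% of all genes were called among the numbers and 2.5% in zdna2 over zdna1. Of 792 values of named members under alternatives, 738 kept sign and side of the threshold, 37 passed it newly, 10 no longer passed and 7 turned.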
